A study of Mus musculus with 6 samples.

Results

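The circular RNAs mmu_circRNA_44122 and mmu_circRNA_22058 are 2 of the 14236 circRNAs measured on a microarray in the hippocampus of aged mice with postoperative cognitive dysfunction (POCD). They were chosen because the study listed both among its 10 most raised circRNAs on these same arrays and carried both forward to qRT-PCR. That list pairs their names with the probes ASCRP4004614 and ASCRP4000668, and each probe had 1 spot on an array. The choice therefore rested on the difference between POCD and control on these arrays, and that difference is given as a description with no test. All mice were male C57Bl/6, 18 months of age. The POCD group (labelled A/S, treatment surgery, n = 3) had an open tibial fracture with intramedullary fixation under isoflurane, and the mice of the other group (labelled C, n = 3) are given as controls. The hippocampus was taken on day 3, with 1 array per mouse. The labels and methods do not describe anesthesia without surgery, so the fracture and the anesthesia cannot be told apart. The hippocampal tissue was stored after the behavioral tests, fear conditioning among them. The probes were not paired here with host genes, so hippocampal marker genes were not checked, and neither the host genes nor the chromosomal positions of the 2 circRNAs were given in the sources used here.

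A circRNA is a closed loop made when the spliceosome joins the end of an exon back to the start of the same or an earlier exon. Without free ends it resists exonucleases and can outlast the linear mRNA of its gene, and circRNAs are plentiful in brain, where many come from genes for synaptic proteins. Some circRNAs carry binding sites for microRNAs (miRNAs), short RNAs that pair with their targets mainly through the seed at their 5′ end. This has led to the idea that a circRNA can take up a miRNA and so relieve the mRNAs it represses. The labels describe removal of ribosomal RNA and random priming before labeling with Cy3, and mention no digestion of linear RNA.

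The study predicted miRNAs for each circRNA, and mature sequences are shown because the seed is the part through which a circRNA would be bound. Of the 9 miRNAs described here, 8 were matched by name in RefSeq (GRCm38.p6), and miR-7010-3p is named only. The capitals mark the seed, bases 2 to 8. For mmu_circRNA_44122 the sequences were:
miR-7033-5p: uCUCCAGGagucugaggggcagg
miR-6914-3p: uCUGUCCAccucuucccag
miR-361-3p: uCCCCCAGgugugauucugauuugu

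For mmu_circRNA_22058 they were:
miR-196a-5p: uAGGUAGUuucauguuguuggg
miR-7048-3p: uCUUCCAUucucuuuccccag
miR-322-5p: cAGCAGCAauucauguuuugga
miR-6964-3p: uUUCUUGUcuuccacucuag
miR-670-3p: uUUCCUCAuauccauucaggagugu

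The 8 seeds were all different, so that 0 seeds were shared between the 3 miRNAs shown for mmu_circRNA_44122 and the 5 shown for mmu_circRNA_22058. The seed of miR-7010-3p was not compared. The seed of miR-322-5p was held by 9 other mature mouse miRNAs of the 1679 in the table, among them miR-15a-5p, miR-15b-5p, miR-16-5p, miR-195a-5p and miR-497a-5p, the family known for restraining cell cycle genes. The seed of miR-196a-5p, a miRNA encoded within the Hox clusters, was shared with 1 other, miR-196b-5p. That of miR-7048-3p was shared with miR-7077-3p, and the remaining 5 seeds were shared with none. Of the 8 miRNAs shown, 3 ended in AG, the letters with which introns end, against 15.6% of all mature miRNAs in the table. These were miR-6914-3p, miR-7048-3p and miR-6964-3p, with 78.9%, 85.7% and 80.0% of bases being the pyrimidines C or U. The median over the table was 50%, and miR-361-3p and miR-670-3p, without AG at the end, were also above it at 64%. Each of the miRNAs shown lay inside the span of an annotated gene, with miR-196a-5p doing so only at its Mir196a-1 locus. The strand of these genes and the places of their introns were not compared. miR-6914-3p was at chr10:128382882-128382900 on the plus strand within Ankrd52. miR-7048-3p was at chr7:25217668-25217688 on the minus strand within Dedd2, and miR-6964-3p at chr16:97877233-97877252 on the minus strand within C2cd2. miR-361-3p lay at chrX:113074827-113074851 on the minus strand within Chm, and miR-322-5p at chrX:53054306-53054327 on the minus strand within C430049B03Rik. miR-7033-5p was at chr5:135383783-135383805 on the minus strand within Pom121, which encodes a nuclear pore protein. The array holds no miRNA levels, and the sequences of the 2 circRNAs were not used here, so these sites were not searched.

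Both circRNAs gave bright spots on every array. For mmu_circRNA_44122 the background-subtracted intensity, on the linear scale of the scanner, was 5229.8, 4336 and 4891 in POCD replicates 1, 2 and 3 and 2164, 3135 and 2614 in control replicates 1, 2 and 3. For mmu_circRNA_22058 it was 3732, 2299.8 and 3009.9 in POCD and 1543, 1718 and 1687 in control. On this scale, with nothing done between arrays, the lowest POCD array of each circRNA was brighter than its highest control array. Both circRNAs were chosen for this increase, and the share of all circRNAs for which this held without scaling was not counted. The median pixel intensity of the spots stood 118- to 319-fold over the local background for mmu_circRNA_44122 and 82.7- to 236-fold for mmu_circRNA_22058. All 12 spots were well above background, with 0 saturated and 0 marked as outliers by the scanner software, which set the error of each spot at 10% of its signal.

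Ordered by intensity from the brightest, mmu_circRNA_44122 was at places 260, 323 and 180 of the 14236 circRNA probes on the POCD arrays and at places 635, 397 and 545 on the control arrays. mmu_circRNA_22058 was at places 381, 610 and 328 in POCD and 880, 749 and 857 in control. The median over the 6 arrays put mmu_circRNA_44122 above 97.5% and mmu_circRNA_22058 above 95.2% of the circRNA probes. Probes differ in how well they bind, so these are places by signal and not by number of molecules. Both places lay ahead of every control array in all 3 POCD arrays, a difference of the same contrast that chose the circRNAs.

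To compare arrays, log2 intensities were taken relative to the 75th percentile of the circRNA probes on the same array. On this scaled intensity mmu_circRNA_44122 stood at 3.96, 3.66 and 4.19 in POCD replicates 1 to 3 and at 2.84, 3.31 and 3.03 in control replicates 1 to 3. The groups did not overlap, and POCD replicate 2 and control replicate 2 were the nearest arrays, 0.36 apart. The POCD mean was 3.94 ± 0.27 (SD, n = 3) and the control mean 3.06 ± 0.24 (SD, n = 3), so that the circRNA was 1.84-fold brighter in POCD (log2 difference 0.88, standard error 0.19). Over the 9 pairs of a POCD with a control array the log2 difference ran from 0.36 to 1.36. In a whole tissue, more RNA per cell and more cells of a type that holds the RNA cannot be told apart.

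mmu_circRNA_22058 stood at 3.47, 2.75 and 3.49 in POCD replicates 1 to 3 and at 2.35, 2.44 and 2.40 in control replicates 1 to 3. The 3 control arrays lay close together and POCD replicates 1 and 3 lay well above them, while POCD replicate 2 was only 0.31 above the highest control. The POCD mean was 3.24 ± 0.42 (SD, n = 3) and the control mean 2.39 ± 0.045 (SD, n = 3), a 1.80-fold higher intensity in POCD (log2 difference 0.84, standard error 0.21). Without POCD replicate 2 the log2 difference was 1.09 for mmu_circRNA_22058 and 1.02 for mmu_circRNA_44122, the highest values with 1 array left out. Without POCD replicate 3 they were lowest, at 0.72 and 0.75.

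**Figure D1:**
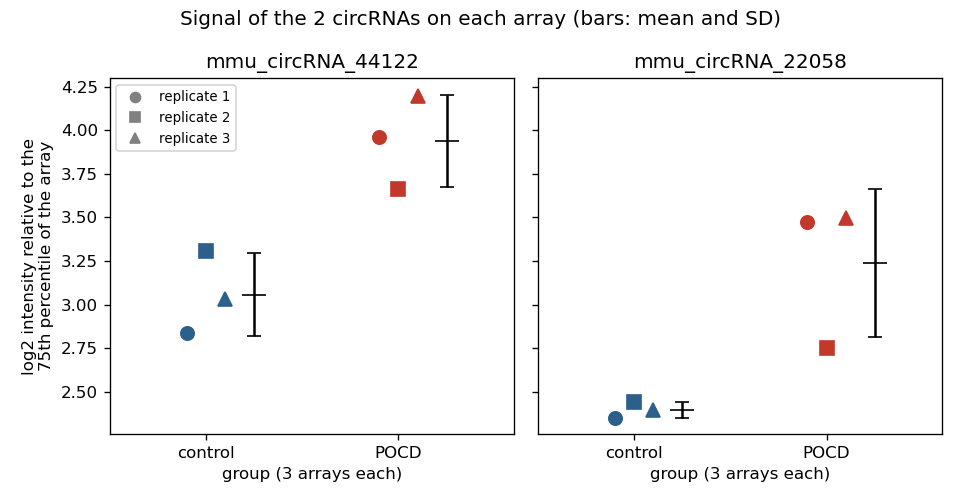
Log2 intensity of mmu_circRNA_44122 (left) and mmu_circRNA_22058 (right) relative to the 75th percentile of the circRNA probes of each array, for 3 control and 3 POCD arrays, with a bar for the mean and SD of each group. The groups do not overlap for either circRNA, and POCD replicate 2 (square) is the POCD array nearest to the controls in both, 0.36 and 0.31 above the highest control.

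Both circRNAs had every POCD array above every control array, which held for 6.23% of the 14144 circRNAs tested. Both had a fold change of at least 1.5 with an unadjusted p under 0.05 from limma, a linear model with a spread shared across circRNAs, as 1.82% of the circRNAs tested did in the same direction. With the methods' t-test on the log2 values deposited by the authors the share was 0.618% of 14236 circRNAs, both circRNAs included. No circRNA among the 14144 reached an adjusted p under 0.05 with limma and Benjamini-Hochberg adjustment (0 circRNAs, against 2048 at an unadjusted p under 0.05), and on these intensities the methods' t-test gave 0 as well, against 1140 unadjusted. Without control replicate 2, 560 circRNAs passed the adjustment with limma, 1 of the 2 chosen circRNAs among them. Nothing is read from these counts, because the circRNAs were chosen on this contrast. By log2 difference, mmu_circRNA_44122 was at place 62 and mmu_circRNA_22058 at place 78 of the 14144 circRNAs. On the deposited values, where the list was made, mmu_circRNA_44122 was at place 5 with a fold of 1.9985 and mmu_circRNA_22058 at place 8 with a fold of 1.9686 among the raised circRNAs past the thresholds. The list ended at place 10 with mmu_circRNA_27407 at a fold of 1.9615, and the probe ASCRP4002821, just outside it, was at 1.9606.

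The spread within groups was uneven for mmu_circRNA_22058 and about equal for mmu_circRNA_44122. For mmu_circRNA_22058 the SD of the control arrays was smaller than that of most circRNAs, since only 5.82% of 14125 circRNAs had a smaller one. In POCD the order was turned, as 90.1% of the circRNAs had a smaller SD than its 0.42. mmu_circRNA_44122 was nearer the middle in both groups, with a smaller SD in 66.0% of circRNAs in POCD and 66.6% in control. As a measure of the error between spots, the 77 probes with 10 spots each that were well above background in every spot had a median SD of 0.067 between the spots of an array. This value does not hold the error between arrays. The control SD of mmu_circRNA_22058 was below it on the scaled intensities, at 0.045. It was above it after quantile normalization, at 0.12, and on the deposited values, at 0.088.

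How far POCD replicate 3 stood out depended on the normalization. This array was the dimmest, with a 75th percentile of 8.06 on the log2 scale against 8.24 to 8.42 on the other arrays. For mmu_circRNA_44122, POCD replicate 3 minus POCD replicate 1 was -0.097 before scaling, 0.23 after the 75th percentile was subtracted, 0.47 after quantile normalization and 0.57 in the deposited values. For mmu_circRNA_22058 the same comparison gave -0.31 before scaling, 0.021 after the 75th percentile was subtracted, 0.23 after quantile normalization and 0.25 in the deposited values. With the normexp background correction and the same 75th percentile scaling it gave 0.24 for mmu_circRNA_44122 and -0.018 for mmu_circRNA_22058. The order of these POCD arrays therefore changed with the processing, while POCD replicate 2 was the lowest POCD array under each of the normalizations run. On the deposited log2 values the POCD mean of mmu_circRNA_44122 was 12.33 ± 0.41 (SD, n = 3) and its control mean 11.33 ± 0.37 (SD, n = 3). For mmu_circRNA_22058 the POCD mean was 11.66 ± 0.47 (SD, n = 3) and the control mean 10.68 ± 0.088 (SD, n = 3). The log2 differences were 0.999 and 0.977 on the deposited values, higher than on the scaled intensities, with a wider SD in both groups for both circRNAs.

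**Figure D2:**
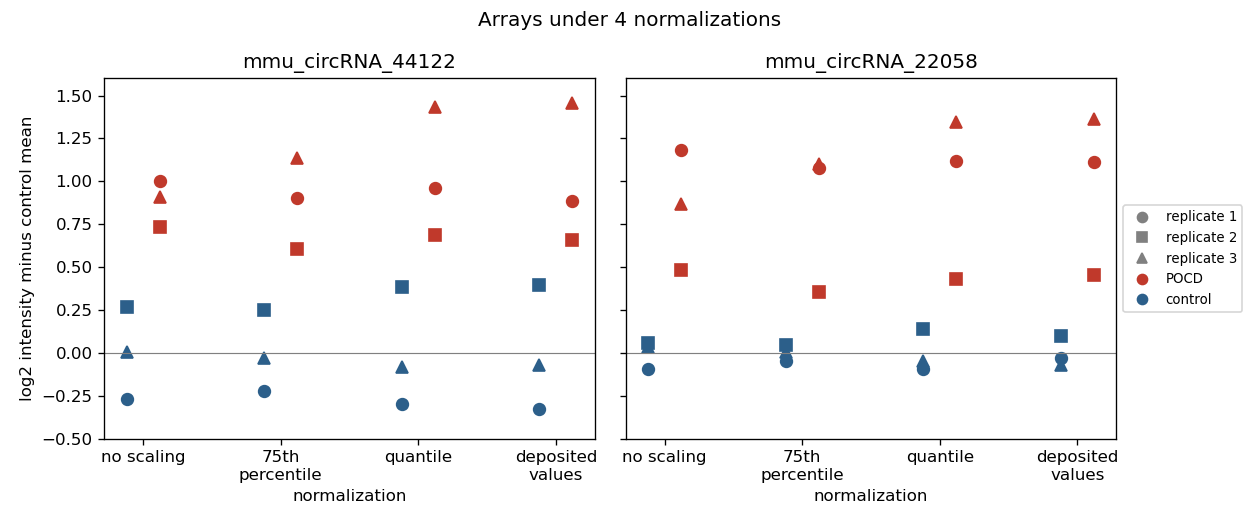
Log2 intensity of each array minus the mean of the control arrays, for mmu_circRNA_44122 (left) and mmu_circRNA_22058 (right), under 4 normalizations along the horizontal axis. POCD arrays are red and control arrays blue, and the symbol gives the replicate. POCD replicate 3 (triangle) moves from below POCD replicate 1 without scaling to 0.57 and 0.25 above it in the deposited values, and no POCD array reaches the controls.

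Few circRNAs at least as bright had a difference as large under the normalizations run, while the sign of their median difference depended on the normalization. On the scaled intensities, of the 370 circRNAs with a mean scaled intensity at or above that of mmu_circRNA_44122, 118 had a higher mean in POCD, and their median log2 difference was -0.18, against -0.032 over all circRNAs tested. Only 1 of the 370 had a log2 difference as large as mmu_circRNA_44122. Of the 589 circRNAs at least as bright as mmu_circRNA_22058, 218 were higher in POCD, the median was -0.13, and 4 had a difference as large. After quantile normalization the medians of the same circRNAs turned to 0.078 and 0.072, with 226 of the 370 and 349 of the 589 higher in POCD, and on the deposited values to 0.076 and 0.073. The number with a difference as large as mmu_circRNA_44122 was then 1 with quantile normalization and 2 with the deposited values, and the number as large as mmu_circRNA_22058 was 4 and 3. These counts describe where 2 circRNAs chosen for their increase lay, and give no test. The other 8 raised circRNAs of the list had log2 differences between 0.88 and 1.26 on the scaled intensities. All 8 were without overlap between the groups, against 6.23% of the 14144 circRNAs tested. They too were listed for their increase on these arrays, so nothing is read from this. mmu_circRNA_44122 was the brightest of the list and was at place 8 of 10 by scaled difference, and mmu_circRNA_22058 was at place 3 by brightness and 10 by scaled difference.

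**Figure D3:**
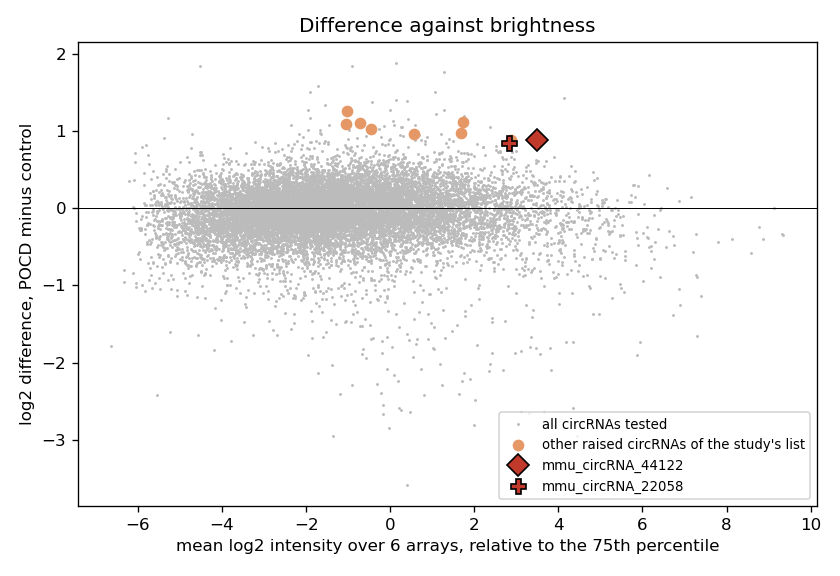
Log2 difference between POCD and control (vertical) against the mean log2 intensity over 6 arrays relative to the 75th percentile (horizontal), with 1 point for each of 14144 circRNAs tested. mmu_circRNA_44122 (diamond, 0.88) and mmu_circRNA_22058 (plus, 0.84) lie at the upper edge of the bright end, whose median difference is below 0 here but above 0 in the deposited values and after quantile normalization, and the other 8 raised circRNAs of the list are orange.

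Spots near the 2 circRNAs on the array were not higher in POCD as a group. The spot of mmu_circRNA_44122 was at row 14 and column 38, and 112 circRNA spots lay within 5 rows and 5 columns of it. Their median log2 difference was -0.064, with 50 higher in POCD, and 0 of them had a difference above that of mmu_circRNA_44122. Around the spot of mmu_circRNA_22058, at row 33 and column 77, the median over 108 spots was -0.057, with 46 higher in POCD and 1 above its own difference. The place of the array on the slide was partly tied to the group. All 6 arrays were on 1 slide, whose row 1 held the controls and POCD replicate 1 and whose row 2 held POCD replicates 2 and 3. Within row 1, POCD replicate 1 was above the mean of the controls by 0.90 for mmu_circRNA_44122 and by 1.08 for mmu_circRNA_22058, and row 2 held no control.

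Over the arrays the profiles of the 2 circRNAs were compared, which their choice for the same increase in part makes alike. On each array the signal of mmu_circRNA_44122 exceeded that of mmu_circRNA_22058 by 0.49, 0.91 and 0.70 in POCD replicates 1 to 3 and by 0.49, 0.87 and 0.63 in control replicates 1 to 3 on the log2 scale. The size of this gap reflects the probes as well as the RNA, and its POCD mean was 0.70 ± 0.21 (SD, n = 3) against a control mean of 0.66 ± 0.19 (SD, n = 3). The difference of these means follows from the 2 log2 differences for which the circRNAs were chosen. With each circRNA centred on its mean over the 6 arrays, the root mean square difference between the 2 profiles was 0.17, where the median circRNA was 0.52 from mmu_circRNA_44122. There were 27 of 14124 circRNAs closer to mmu_circRNA_44122 than mmu_circRNA_22058 was, and 23 closer to mmu_circRNA_22058 than mmu_circRNA_44122 was. Among the other 9 raised circRNAs of the list, chosen for the same increase, mmu_circRNA_22058 was at place 1 by closeness to mmu_circRNA_44122, but mmu_circRNA_44122 was at place 3 by closeness to mmu_circRNA_22058, and at place 4 with the group means removed. With the group difference removed, by centring on the group means, the profiles were also 0.17 apart, but now 20.5% of the circRNAs were closer to mmu_circRNA_44122 and 5.33% were closer to mmu_circRNA_22058. Within the groups, both had POCD replicate 2 as their lowest POCD array. POCD replicate 3 and control replicate 2 were the highest of their groups for both on the scaled intensities, but for mmu_circRNA_22058 by less than the SD of 0.067 between spots, and with normexp POCD replicate 1 and control replicate 1 were the highest for it. POCD replicate 2 was 0.28 below the group mean for mmu_circRNA_44122 and 0.49 below it for mmu_circRNA_22058. Control replicate 2 was 0.25 above the control mean for mmu_circRNA_44122, while for mmu_circRNA_22058 it was 0.043 above. Over all circRNAs, control replicate 2 had a mean r of 0.988 with the POCD arrays and 0.978 with the other controls, across circRNAs and not replicates. POCD replicate 2 had a mean r of 0.985 with the other POCD arrays and 0.985 with the controls.

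The circRNA probes with the profile closest to mmu_circRNA_44122 over the 6 arrays were ASCRP4011913, ASCRP4008656 and ASCRP4003880, with root mean square differences of 0.12, 0.13 and 0.13. Those closest to mmu_circRNA_22058 were ASCRP4003438, ASCRP4002953 and ASCRP4002239, at 0.067, 0.068 and 0.087. Their log2 differences between POCD and control were 0.81, 0.80 and 0.72. With the group difference removed, other probes were nearest. These were ASCRP4004927, ASCRP4001033 and ASCRP4001120 for mmu_circRNA_44122, at 0.016, 0.023 and 0.025, and ASCRP4007002, ASCRP4009333 and ASCRP4010825 for mmu_circRNA_22058, at 0.043, 0.044 and 0.046. Their own log2 differences were as low as 0.047 for ASCRP4010825 and as high as 1.01 for ASCRP4009333. These probes are not paired with circRNA names in the list.

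**Figure D4:**
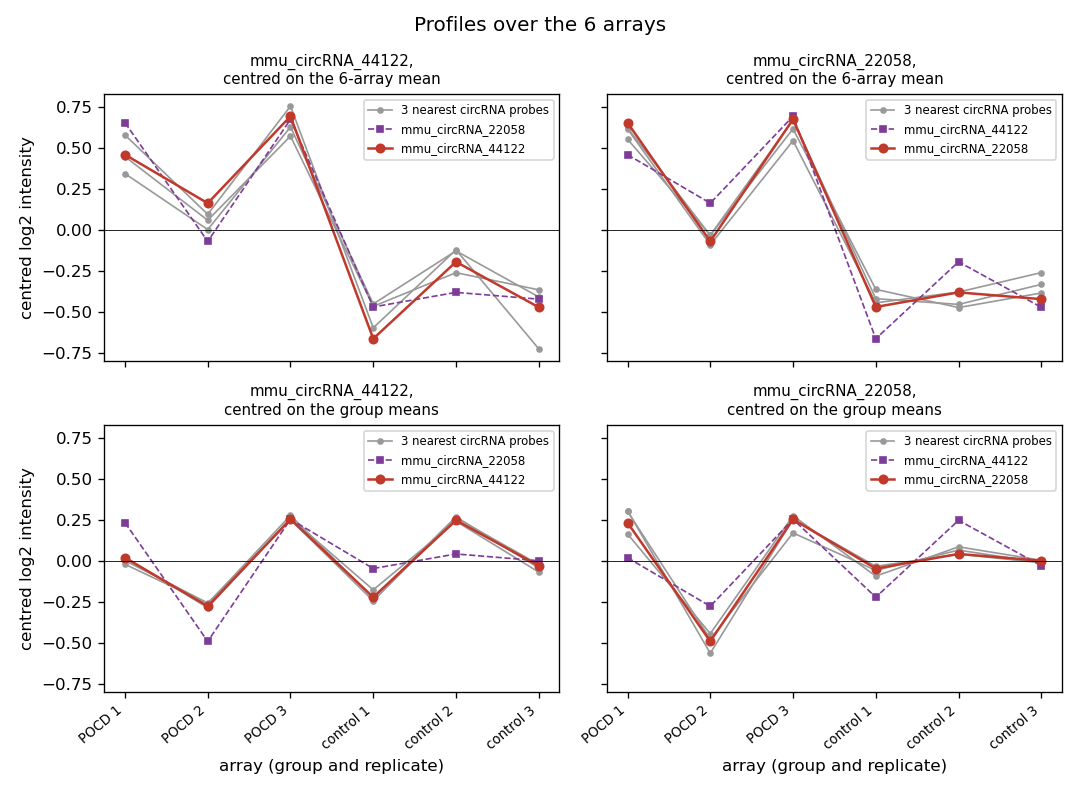
Centred log2 intensity on each of the 6 arrays for mmu_circRNA_44122 (left column, red) and mmu_circRNA_22058 (right column, red), with the other of the 2 as a dashed purple line and the 3 circRNA probes of the closest profile in grey. The top row is centred on the mean of the 6 arrays and the bottom row on the group means. In the bottom row both circRNAs are lowest in POCD replicate 2, at -0.28 and -0.49, while control replicate 2 stands at 0.25 for mmu_circRNA_44122 and at 0.043 for mmu_circRNA_22058.

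The log2 difference stayed above 0 in each of 18 alternatives for both circRNAs. It lay between 0.75 and 1.03 for mmu_circRNA_44122 and between 0.68 and 1.09 for mmu_circRNA_22058, and every value kept a fold of at least 1.5. With 3 arrays in a group, the precision of these differences is limited by the number of mice. The study reported that both circRNAs differed significantly between the groups by qRT-PCR, matching its array results. It did not say whether the same mice were used. The qRT-PCR values of the study were not analysed here.

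**Figure D5:**
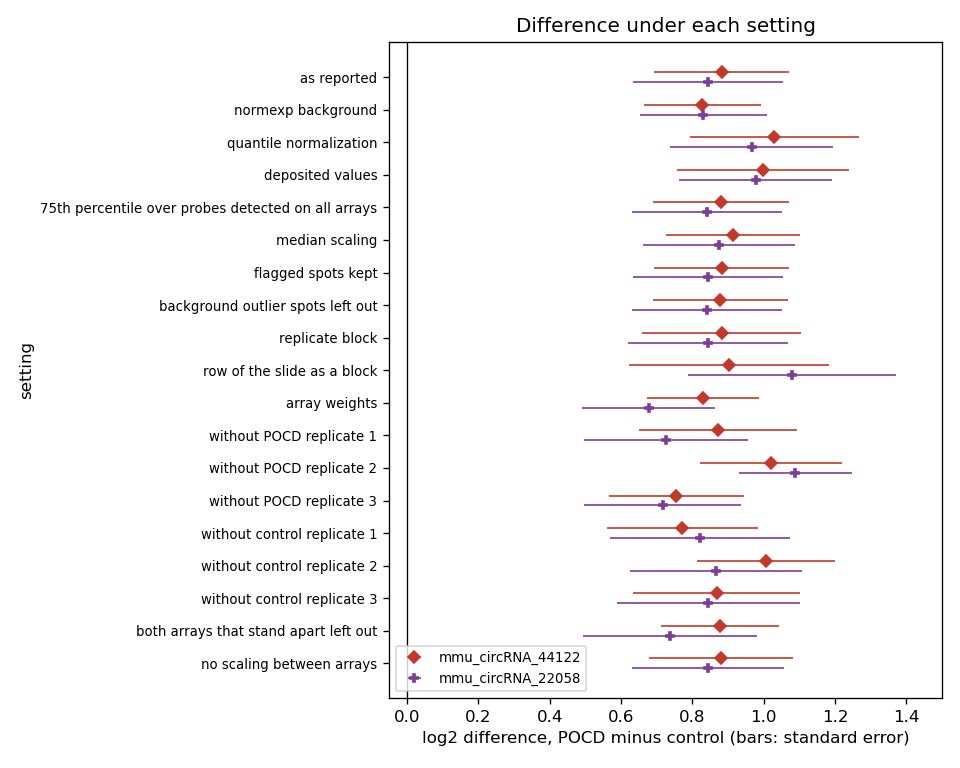
Log2 difference between POCD and control (horizontal, bars are standard errors) for mmu_circRNA_44122 (red diamonds) and mmu_circRNA_22058 (purple pluses) as reported and under each of 18 alternatives (vertical). All values lie above 0, which leaving out, weighting or blocking arrays could not change. The lowest is 0.68 for mmu_circRNA_22058 with arrays weighted by quality.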

How the data were processed

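Hippocampal RNA of 3 POCD and 3 control mice was measured on 6 one-colour arrays. The authors deposited the spot intensity of each array as given by Agilent Feature Extraction version 11.0.1.1, background-subtracted and not normalized between arrays, with the median intensity of spot and background. A second table deposited by the authors holds normalized log2 values, and the normalization is not given in the sources used here. Its array medians lay between 7.05 and 7.07 and its rank correlation with the matching array was at least 0.99938, so it was read as log2 intensity that is not centred per circRNA.

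Spots flagged by the software (uneven or outlying) and control spots were not used. Log2 intensities were scaled by subtracting the 75th percentile of the circRNA probes. circRNAs well above background on at least 3 arrays (14144) were fitted with limma version 3.58.1 in R version 4.3.3, after the fit was tested on simulated data. The simulated shift was larger than the log2 differences of the 2 circRNAs, so that check does not bear on differences of their size. Per array, 98.3% to 99.5% of circRNA probes were called well above background. Figures used matplotlib 3.10.9. The named probes are the 2 circRNAs, the 3 closest profiles to each under either centring, and the circRNAs at the end of the study's raised list. The members, lists and alternatives were chosen with earlier results of these data known. One miRNA predicted for mmu_circRNA_44122 is not reported here.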

Additional observations from a re-analysis of the deposited data

How the results depend on the processing

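The log2 differences of mmu_circRNA_44122 and mmu_circRNA_22058 moved by less than 1 SD between replicates under all 18 alternatives, and their places by signal did so under the 3 that bear on them. Leaving out each array in turn gave 0.75 to 1.02 for mmu_circRNA_44122 and 0.72 to 1.09 for mmu_circRNA_22058. Leaving out both control replicate 2 and POCD replicate 3, chosen after seeing the data, gave 0.88 and 0.74, and no scaling between arrays, also chosen later, gave 0.88 and 0.84. With the replicate number as a block the differences could not move from 0.88 and 0.84, since each number had 1 array per group. Their standard errors were 0.22 and 0.22, and 282 circRNAs passed as higher in POCD. Between the POCD and the control array of the same number, r of the deviations was 0.011, -0.55 and -0.23 for replicates 1, 2 and 3. With only 3 arrays in a group, these values cannot decide whether the numbers pair the mice.

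The share of all circRNAs behind the comparison depended more on the processing. The 257 circRNAs past a fold of 1.5 and an unadjusted p under 0.05 as higher in POCD (682 lower) became 120 with normexp, 141 with the slide row as a block, 428 without both arrays above, 94 with the methods' t-test and 88 (36 lower) with that test on the deposited values. The cause was not tested. With the slide row as a block the difference came only from POCD replicate 1 against the controls, since row 2 held no control. With each array left out the number ran from 107 without POCD replicate 3 to 662 without control replicate 2, with 119 without control replicate 3 and 407 without POCD replicate 2. The number past an adjusted p was 0 in the other settings with all 6 arrays, 318 without both arrays above, and 0 or 1 with any array but control replicate 2 left out. Neither mmu_circRNA_44122 nor mmu_circRNA_22058 was among the 318. Quantile normalization gave 366 higher and 508 lower, and limma on the deposited values 221 higher and 338 lower. Normexp was run on the median signal, since the mean signal was not used here.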
